A study of Mus musculus with 15 samples.

Results

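The 40 genes described here encode proteins that copy DNA (20 genes) and proteins that divide the copied chromosomes between daughter cells (20 genes). They were taken from a list of names chosen with earlier results of these data known. A gene was read from every probeset whose annotation gave its symbol alone. Of the 40, 37 had such probesets among the 16299 genes named on the array, and 36 of these 37 were detected. The expression of Rrm2, Ccnb1 and Cenpf was not analysed here. The platform lists Cdk1 as Cdc2a and Cdc45 as Cdc45l, and these older names are kept below. All 37 genes together were read by 618 probesets, from 3 to 47 per gene with a median of 15.

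The samples were leukaemic spleens from mice of the Bl/6 Taconic strain. The disease, acute promyelocytic leukaemia (APL), holds myeloid cells at the promyelocyte stage, on the way to neutrophils. Total RNA of 15 tumours was measured on Affymetrix Mouse Exon 1.0 ST arrays, 1 array each. All 15 carry the same strain, tissue and disease in the labels, with no healthy or treated group, so every comparison below is between tumours. The labels give no transgene, age, treatment or batch, nor do they tie each tumour to an animal of its own, so the spread between arrays may be partly technical.

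A dividing cell first loads the ring-shaped Mcm2-7 helicase onto its origins, then opens the origins and copies the DNA in S phase, and later condenses, aligns and separates the chromosomes in mitosis. Genes of the first step are classically switched on by E2F transcription factors in late G1, and genes of mitosis by complexes that act through CHR and CCAAT elements in G2. The leukaemic cells of APL divide, whereas mature neutrophils do not, and a spleen also holds lymphocytes, macrophages and red cell precursors. In RNA of a whole spleen, fewer dividing cells and less RNA per dividing cell cannot be told apart.

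These elements are shown in the promoters of the pair of members with the highest correlation over 15 tumours in each list. Mcm3 and Mcm6 had the highest correlation of any pair of replication genes across the 15 tumours (r = 0.94), and Cdc20 and Plk1 of any pair of mitosis genes (r = 0.91). Over the 13 tumours without tumor_9509 and tumor_9514, the highest pairs were instead Mcm6 with Dtl (r = 0.93) and Tpx2 with Nusap1 (r = 0.86). Their promoter windows, 250 bases before to 50 bases after the RefSeq gene start on GRCm38.p6, are printed 5′ to 3′ on the gene's own strand. Mcm3 lies at chr1:20820263-20820562 and Mcm6 at chr1:128359656-128359955, both on the minus strand. Cdc20 lies at chr4:118437294-118437593 on the minus strand and Plk1 at chr7:122159185-122159484 on the plus strand. Capitals mark the strings searched for on both strands: E2F (TTTCCCGC, TTTGGCGC, TTTCGCGC or TTTGCCGC), CHR (TTTGAA or TTCGAA) and CCAAT.
Mcm3: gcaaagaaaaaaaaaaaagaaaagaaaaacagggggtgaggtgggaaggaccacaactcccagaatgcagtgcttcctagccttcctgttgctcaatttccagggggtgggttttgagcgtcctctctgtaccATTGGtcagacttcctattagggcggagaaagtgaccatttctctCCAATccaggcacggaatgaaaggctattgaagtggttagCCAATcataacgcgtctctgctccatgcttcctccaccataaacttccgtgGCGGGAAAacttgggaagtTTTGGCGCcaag
Mcm6: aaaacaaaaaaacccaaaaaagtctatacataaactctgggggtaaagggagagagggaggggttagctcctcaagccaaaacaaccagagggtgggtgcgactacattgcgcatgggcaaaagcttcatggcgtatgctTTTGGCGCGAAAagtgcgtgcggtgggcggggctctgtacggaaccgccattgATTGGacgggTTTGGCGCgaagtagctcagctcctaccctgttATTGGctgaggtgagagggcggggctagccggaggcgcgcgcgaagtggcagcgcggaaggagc
Cdc20: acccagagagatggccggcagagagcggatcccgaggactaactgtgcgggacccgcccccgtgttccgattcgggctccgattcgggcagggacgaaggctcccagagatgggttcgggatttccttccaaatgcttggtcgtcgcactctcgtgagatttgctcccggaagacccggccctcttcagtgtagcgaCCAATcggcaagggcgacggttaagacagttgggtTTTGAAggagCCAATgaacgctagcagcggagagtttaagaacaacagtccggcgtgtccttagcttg
Plk1: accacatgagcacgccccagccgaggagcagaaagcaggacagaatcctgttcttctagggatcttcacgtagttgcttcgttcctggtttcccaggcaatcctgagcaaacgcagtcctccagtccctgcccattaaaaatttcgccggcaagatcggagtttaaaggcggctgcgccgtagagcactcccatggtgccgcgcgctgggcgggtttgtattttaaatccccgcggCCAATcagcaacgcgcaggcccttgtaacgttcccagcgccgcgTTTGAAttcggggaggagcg
The Mcm3 window held 2 E2F strings and 3 CCAAT boxes, and the Mcm6 window held 3 E2F strings, of which a pair overlap on opposite strands, and 2 CCAAT boxes. Neither held a CHR string. The Cdc20 window held 1 CHR string beside 2 CCAAT boxes, and the Plk1 window 1 CHR string and 1 CCAAT box, with no E2F string in either.

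The same division ran through the lists. The RefSeq promoter table held 18 of the 20 replication genes in 21 windows and 17 of the 20 mitosis genes in 18 windows. Windows of Rrm2, Ccnb1 and Cenpf, and of Fen1, which was not detected, are among them. An E2F string stood in 7 of the 21 replication windows (33.3%) and in 1 of the 18 mitosis windows (5.56%), that of Cdc2a, against 2.26% of all 32851 windows. A CHR string stood in 14 of the 18 mitosis windows (77.8%) and in 4 of the 21 replication windows (19.0%), against 19.2% of all windows. All 14 of those mitosis windows also held a CCAAT box, a combination found in 3 of the 21 replication windows and in 7.52% of all windows. CCAAT alone was common to both, with 14 of 21 (66.7%) and 16 of 18 (88.9%) windows, against 37.4% of all. A window without a string, such as those of Mcm2, Rrm1 and Pcna for E2F, says only that these letters are not in those 300 bases.

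Before the values, the arrays of tumor_9509 and tumor_9514 stand apart from the rest. Their median deposited intensity was 108, whereas the other 13 lay between 120 and 129, and the median deviation over all detected genes was -0.23 log2 units in tumor_9509 and -0.18 in tumor_9514. The brightness of these arrays thus moved with the genes described here, which were also low in both. The main counts are therefore given over 15 tumours and over the 13 tumours without them; a value with no other mark is over all 15. Beyond these values and those on centred arrays, the part of the array shift in the results was not tested.

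Most members moved together. For each gene, the log2 deviation from its mean was correlated across tumours with the mean deviation of the other 35 detected members; this r is a description, since all genes of a tumour share its array, and carries no p-value. The median r of the 36 members was 0.76, against 0.27 for all 9779 detected genes. Of the 36, 28 had an r of at least 0.5, which 30.7% of all detected genes also reached. Over 13 tumours the median was 0.65 against 0.09, and 22 of 36 members reached 0.5 against 13.5% of all detected genes. When the pair was left out, 14 of 18 became 13 of 18 for the replication genes and 14 of 18 became 9 of 18 for the mitosis genes, and the difference between the lists was not tested. Read by single probesets, 63.6% of the members' probesets had an r of at least 0.5 with the members, against 25.2% of all probesets of detected genes. Across tumours, the members' mean deviation correlated at r = 0.79 with the median deviation of all detected genes on the array. On centred arrays the members' median r was lower, as the closing section gives.

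**Figure D1:**
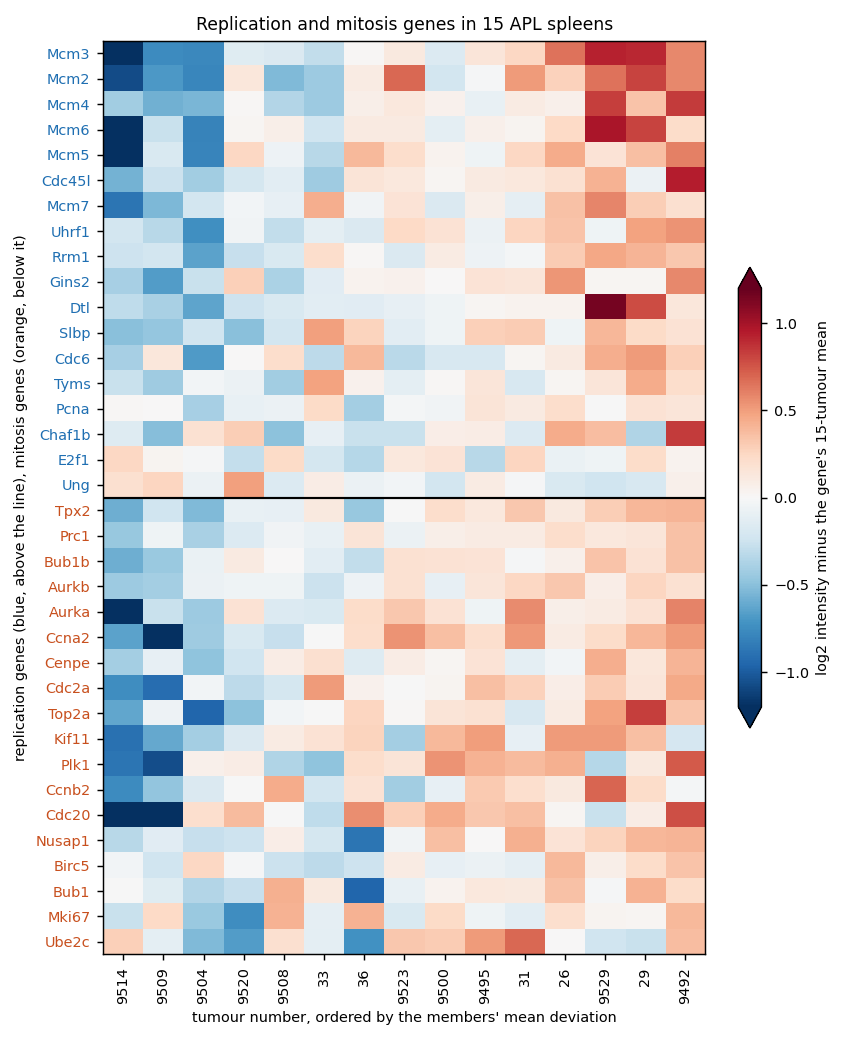
Log2 intensity minus the gene's 15-tumour mean for the 36 detected members (rows; replication genes above the line, mitosis genes below it) in 15 tumours (columns, ordered by the members' mean deviation from lowest to highest). Most rows run from blue in tumor_9514, tumor_9509 and tumor_9504 to red in tumor_9492, and the rows at the foot of each block (E2f1, Ung, Mki67, Ube2c) do not.

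The members' mean deviation ran from -0.52 in tumor_9514, -0.38 in tumor_9509 and -0.36 in tumor_9504 up to 0.29 in tumor_29, 0.29 in tumor_9529 and 0.39 in tumor_9492. Of the 36 members, 28 had their lowest value in 1 of the 3 lowest tumours, 15 of them in tumor_9514, 7 in tumor_9509 and 6 in tumor_9504. At the other end, 12 members were highest in tumor_9492 and 7 in tumor_9529. Relative to the median of its own array, tumor_9514 stood at -0.35, tumor_9504 at -0.34 and tumor_9509 at -0.15, while tumor_9492 stood at 0.32. The low value of tumor_9504 was thus found on an array of ordinary brightness, whose median over all genes deviated by -0.02. The replication and mitosis means differed most in tumor_9529, where replication stood 0.23 higher, and in tumor_9500, where it stood 0.21 lower than mitosis, a difference of -0.21.

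Single members spanned 1.51-fold to 4.64-fold between their lowest and highest tumour, with a median of 2.57-fold. Their median SD over the 15 tumours was 0.37 log2 units, against 0.29 for all detected genes. Because each gene has its own probesets, levels are compared below between tumours and never between genes.

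**Figure D2:**
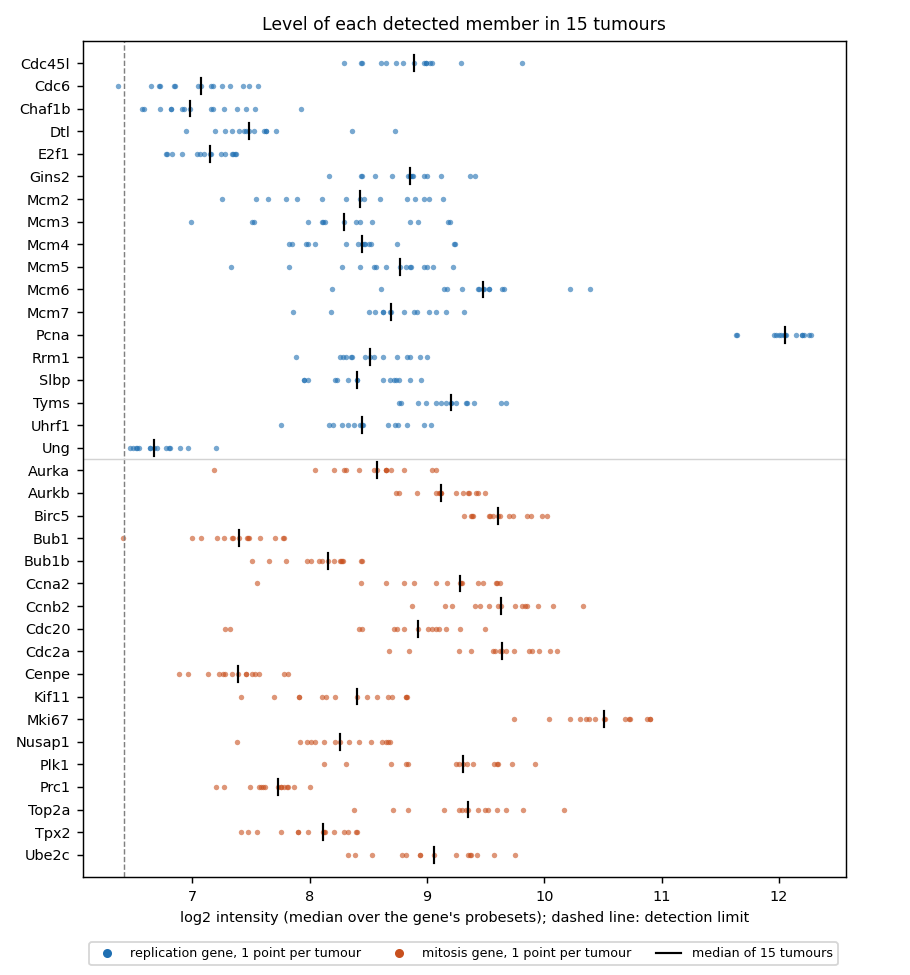
Log2 intensity of each of the 36 detected members in 15 tumours (1 point per tumour; black bar, median; dashed line, detection limit of 6.41), replication genes above and mitosis genes below in alphabetical order. Pcna, E2f1 and Ung had narrow ranges, whereas Mcm3 and Cdc20 spanned over 2 log2 units and the low points of Cdc20 stand apart from its other 13.

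The Mcm2-7 subunits form the replicative helicase. Their 15 pairs had a mean r of 0.80 over 15 tumours, from 0.61 for Mcm4 with Mcm7 to 0.94 for Mcm3 with Mcm6. Over 13 tumours the mean was 0.71, from 0.29 for Mcm5 with Mcm7 to 0.92 for Mcm3 with Mcm6. Mcm3 followed the other members more closely than any other member did, with r = 0.95, rho = 0.93 and r = 0.91 over 13 tumours. Its log2 intensity was 6.99 in tumor_9514, 8.29 in the median tumour and 9.20 in tumor_9529 (SD 0.63, n = 15), a 4.62-fold range. Mcm2 ran from 7.25 in tumor_9514 through a median of 8.43 to 9.14 in tumor_29 (SD 0.60, n = 15), with r = 0.87, rho = 0.82 and r = 0.79 over 13 tumours. Both were low in the same 3 tumours, with tumor_9504 the lowest of the remaining 13 at 7.51 for Mcm3 and 7.54 for Mcm2.

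Mcm6 ran from 8.19 in tumor_9514 through 9.48 to 10.39 in tumor_9529 (SD 0.54, n = 15), with r = 0.84 and 0.78 over 13 tumours. Mcm4 ran from 7.83 in tumor_9509 through 8.45 to 9.24 in tumor_9492 (SD 0.44, n = 15), with r = 0.85 in 15 and in 13 tumours. Mcm5 and Mcm7 had r = 0.82 and r = 0.79, which became 0.77 and 0.55 over 13 tumours. Each of the 6 subunits had its highest value in tumor_9492, tumor_9529 or tumor_29, and each kept an r above 0.5 in all 28 settings tried.

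The factors that load or start the helicase also had an r above 0.5 with the other members. Cdc6, which loads the rings onto origins, had r = 0.57 and 0.65 over 13 tumours. Cdc45l and Gins2, which complete the active helicase, had r = 0.81 and 0.76, and 0.78 and 0.61 over 13 tumours. Rrm1, the large subunit of the enzyme that makes deoxynucleotides, had r = 0.79, and 0.85 without the 2 dim arrays. Tyms, which makes thymidylate, had 0.55, and 0.32 without them. Both nucleotide genes correlated with each other at r = 0.63 over 15 and 0.58 over 13 tumours.

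The chromatin partners of the fork were split. Uhrf1, which carries DNA methylation through replication, had r = 0.79 and 0.85 over 13 tumours, and Slbp, which binds histone mRNA, had 0.67 and 0.46. Chaf1b, a subunit of the complex that places histones on new DNA, had only r = 0.42, rho = 0.38 and 0.29 over 13 tumours. Its log2 intensity was 6.58 in tumor_9509, 6.98 in the median tumour and 7.93 in tumor_9492 (SD 0.38, n = 15). Its value in tumor_9492 was the highest of 15 and 0.62 above the line on the other members, while tumor_29, high in most members, lay below the mean of Chaf1b.

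Pcna, the sliding clamp that holds the polymerase on DNA, hardly varied. It read 11.63 in tumor_36, 12.05 in the median tumour and 12.27 in tumor_33 (SD 0.19, n = 15), a 1.56-fold range. Its r of 0.43 (rho 0.44) became 0.64 without tumor_9509 and tumor_9514 and 0.52 without tumor_36 alone. Its probesets were bright in every tumour, and saturation could not be checked from the deposited values. Fen1, the nuclease that trims Okazaki fragments, was the only measured member that was not detected: it was read by 3 probesets, from 5.15 in tumor_9509 through 6.03 to 6.58 in tumor_9529 (SD 0.40, n = 15).

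E2f1 and Ung did not follow the common movement. E2f1, a transcription factor that activates S-phase genes, had r = -0.07, rho = -0.04 and 0.21 over 13 tumours. It read 6.77 in tumor_36, 7.15 in the median tumour and 7.37 in tumor_31 (SD 0.21, n = 15). Ung, the glycosylase that removes uracil from DNA, ran the other way with r = -0.48, rho = -0.52 and -0.28 over 13 tumours. It was lowest in tumor_9529 at 6.47, 6.67 in the median tumour and highest in tumor_9520 at 7.20 (SD 0.20, n = 15), so its lowest value fell in a tumour where most members were high. Ung lay near the detection limit of 6.41 with a mean of 6.71, and E2f1 lay further above it with 7.12. The odd-ranked and even-ranked probesets of both genes tracked each other poorly, with r = 0.13 for E2f1 and 0.27 for Ung. The median over the 36 members was 0.94. With the mean over probesets in place of the median, r became 0.28 for E2f1 and 0.075 for Ung, so neither negative sign held. Dtl, the substrate receptor of the ligase that destroys Cdt1, ranked tumours almost as the members did (rho 0.97), although its r was 0.72, and 0.75 over 13 tumours.

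Among the mitosis genes, Tpx2 and Prc1 had the highest r with the other members. Tpx2, which activates Aurora A on the spindle, had r = 0.88, rho = 0.91 and 0.85 over 13 tumours, and read 7.41 in tumor_9514, 8.12 in the median tumour and 8.40 in tumor_9492 (SD 0.33, n = 15). Prc1, which bundles microtubules between the separating chromosomes, had r = 0.88, rho = 0.85 and 0.89 over 13 tumours, with 7.20 in tumor_9514, 7.73 in the median tumour and 8.01 in tumor_9492 (SD 0.22, n = 15). Both genes were thus lowest and highest in the same tumours. Bub1b, a checkpoint kinase, had r = 0.84 and 0.66 over 13 tumours, and the Aurora kinases Aurkb and Aurka had 0.83 and 0.80, and 0.67 each over 13 tumours. The motor Cenpe, which aligns chromosomes, had r = 0.77 and 0.75 over 13 tumours. Top2a, which untangles sister DNA, had r = 0.76 and 0.80 over 13 tumours.

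Likeness in another part of the mitosis list rested on the 2 dim arrays. Cdc20, which activates the anaphase-promoting complex, read 7.28 in tumor_9514 and 7.32 in tumor_9509, 8.92 in the median tumour and 9.49 in tumor_9492 (SD 0.64, n = 15), a 4.64-fold range. The lowest of the other 13 was 8.42, so both dim tumours lay more than 1 log2 unit below all others. Its r of 0.62 (rho 0.38) became 0.07 over 13 tumours. Plk1, the kinase that drives entry into and passage through mitosis, read 8.12 in tumor_9509, 9.31 in the median tumour and 9.92 in tumor_9492 (SD 0.52, n = 15), and its r of 0.67 became 0.35. Ccnb2, a B-type cyclin, went from 0.65 to 0.34, and Cdc2a, the kinase it activates, from 0.76 to 0.49.

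Pairs of genes showed the same pattern. The mitotic kinases Plk1, Aurka, Aurkb and Cdc2a had a mean pairwise r of 0.69 over 15 tumours and 0.35 over 13. Ccna2, Ccnb2 and Cdc2a fell from a mean of 0.62 to 0.17. The motor and spindle genes Cenpe, Kif11, Tpx2, Nusap1 and Prc1 changed less, from 0.63 to 0.52. Ccna2, the cyclin of S phase and early mitosis, kept r = 0.79 and 0.75, with 7.55 in tumor_9509, 9.28 in the median tumour and 9.62 in tumor_9523 (SD 0.55, n = 15).

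**Figure D3:**
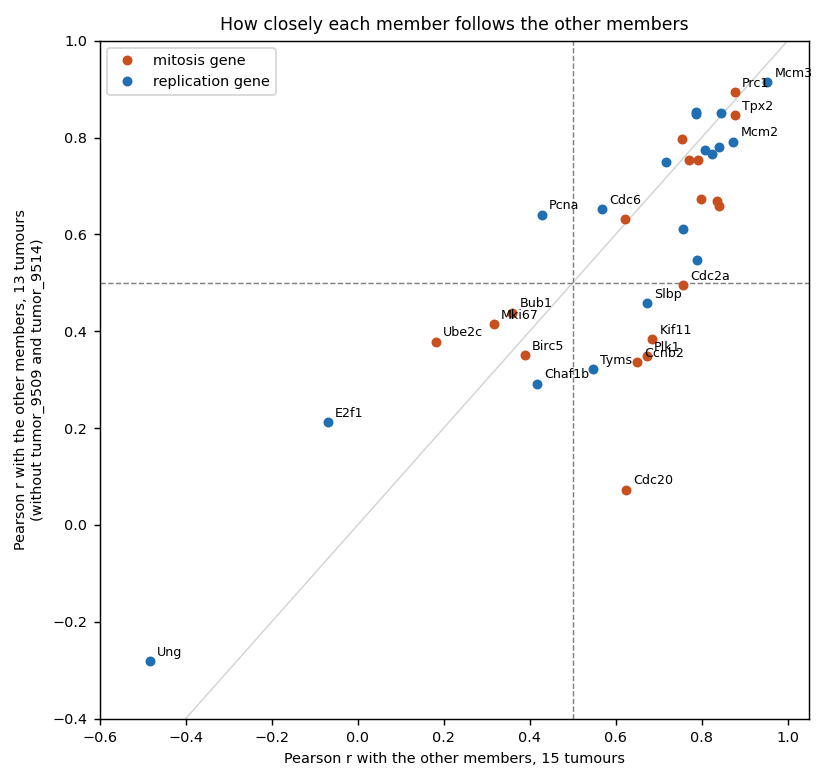
Pearson r of each of the 36 detected members with the other members over 15 tumours (horizontal axis) and over 13 tumours without tumor_9509 and tumor_9514 (vertical axis); dashed lines mark 0.5 and the grey line equal values. Cdc20 drops from 0.62 to 0.07, Pcna rises from 0.43 to 0.64, and E2f1 and Ung lie at the lower left.

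The protein Ki-67 is the usual stain for dividing cells, and its gene was among the 8 members with an r under 0.5. Mki67 read 9.74 in tumor_9520, 10.51 in the median tumour and 10.90 in tumor_9508 (SD 0.33, n = 15), with r = 0.32, rho = 0.26 and 0.41 over 13 tumours. Both tumor_9508 and tumor_9520 lay in the lower part of the members' range, with mean deviations of -0.08 and -0.09, yet they were the highest and the lowest for Mki67. The gene was read by 5 probesets, and the means of the odd-ranked and the even-ranked ones correlated at 0.90. Taken singly, the 5 differed: their r with the members ran from -0.48 to 0.45 with a median of 0.09. Of the 5, 2 were below 0 and 0 reached 0.5. In limma, 0 of 35 other members rose with Mki67 at an adjusted p under 0.05, as did 0% of 9778 genes. With slopes of either sign counted, 4 members and 253 genes had an unadjusted p under 0.05. The 4 were Top2a, Prc1, Cdc6 and Cdc45l, and the slope of Top2a was 0.82 (SE 0.28), with limma's adjusted p = 0.99977. The slopes of 31 of 35 members were positive, against 51.8% of all genes. On centred arrays these were 23 of 35 against 58.5%, and with quantile normalization 21 of 35 against 48.0%.

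Outside the lists, genes with at least 3 probesets were ranked by their limma p for rising with Mki67. The smallest belonged to Kbtbd3, Atg12, EG240055, 4930422G04Rik, Bmpr1a, Ly6c2, Rmi1, Sgcb, Il17rb and Smchd1. The slope of Kbtbd3 was 1.13 (SE 0.27), and limma's adjusted p was 0.99977 for all 10.

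The other mitosis genes with an r under 0.5 were Bub1, Ube2c and Birc5. Bub1, a kinase of the spindle checkpoint, had r = 0.36, rho = 0.47 and 0.44 over 13 tumours, and read 6.41 in tumor_36, 7.40 in the median tumour and 7.78 in tumor_9508 (SD 0.35, n = 15). Ube2c, the ubiquitin-conjugating enzyme of the anaphase-promoting complex, had r = 0.18, rho = 0.28 and 0.38 over 13 tumours, with 8.33 in tumor_36, 9.06 in the median tumour and 9.75 in tumor_31 (SD 0.43, n = 15). Both had their lowest value in tumor_36, a tumour whose mean over all members was near the middle at -0.03. Birc5, which encodes survivin of the chromosomal passenger complex, had r = 0.39, rho = 0.43 and 0.35 over 13 tumours, and read 9.32 in tumor_33, 9.60 in the median tumour and 10.02 in tumor_26 (SD 0.23, n = 15). Its odd-ranked and even-ranked probesets correlated at 0.53, and its r was 0.79 with only the brighter probesets.

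Mcm2, whose protein marks cells licensed to replicate, gave the second test. In limma, 16 of the other 35 members rose with Mcm2 at an adjusted p under 0.05 and 0 fell, against 995 of 9778 genes (10.2%) that rose. The steepest was Mcm3, with 0.96 log2 units per unit of Mcm2 (SE 0.12, limma's adjusted p = 0.000493), followed by Mcm6 at 0.76 (SE 0.13, limma's adjusted p = 0.00480). Aurka, the spindle pole kinase, rose with 0.63 (SE 0.12, limma's adjusted p = 0.00581). By list, 9 of 17 replication genes rose (Mcm3 to Mcm7, Uhrf1, Cdc45l, Dtl and Gins2), as did 7 of 18 mitosis genes (Aurka, Ccna2, Aurkb, Tpx2, Bub1b, Top2a and Prc1). The slope of Mki67 was 0.06 (SE 0.14, limma's adjusted p = 0.81). Positive slopes were found in 33 of 35 members and in 68.7% of all genes.

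Most of these calls were lost without the dim arrays. Over 13 tumours 2 of 35 members rose, Mcm3 at 0.83 (SE 0.14, limma's adjusted p = 0.0265) and Mcm4 at 0.67 (SE 0.14, limma's adjusted p = 0.0439), against 0.327% of all genes. With arrays centred on their median over detected genes, 3 of 35 rose, Mcm3, Mcm6 and Mcm5, against 0.43% of all genes. Leaving out tumor_9514 alone left 5 calls, and leaving out tumor_9509 alone left 11. The direction stayed: 34 of 35 slopes were positive over 13 tumours, against 58.5% of all genes. Cdc20 went from a slope of 0.64 (SE 0.22) to 0.10 (SE 0.17).

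**Figure D4:**
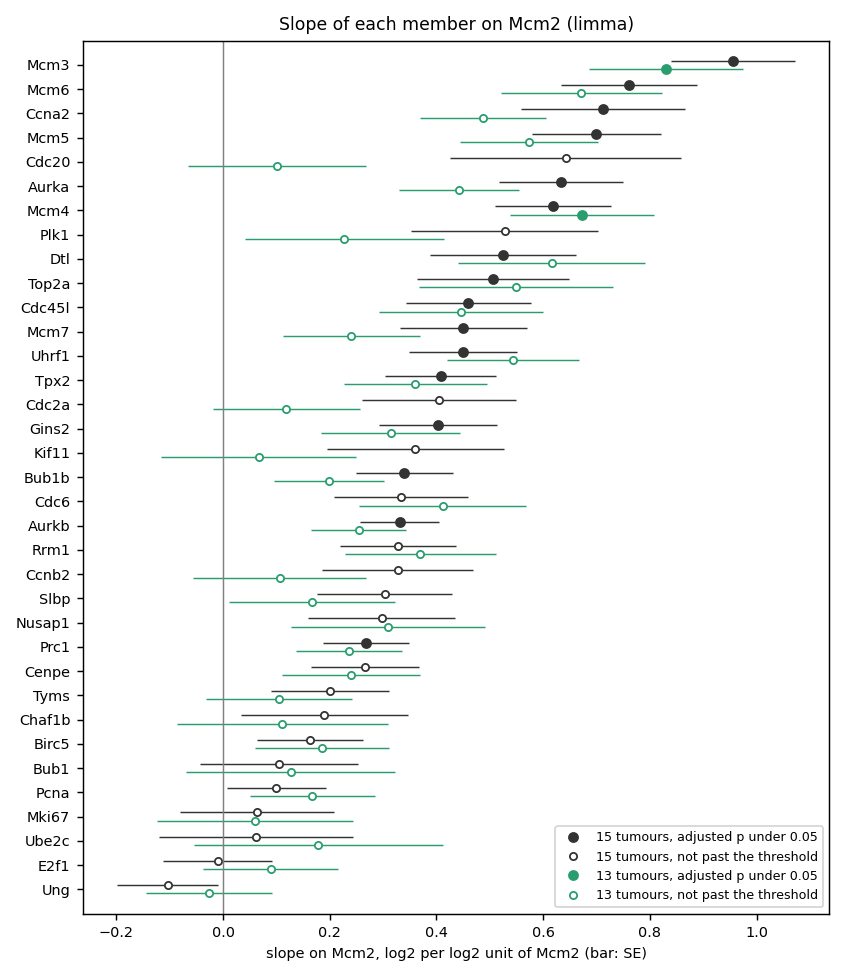
Slope of each of 35 members on Mcm2 in limma, in log2 units per log2 unit of Mcm2, over 15 tumours (black) and over 13 tumours (green); bars are SE and filled points have an adjusted p under 0.05. Filled points number 16 over 15 tumours and 2 over 13, while nearly all slopes lie to the right of 0.

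Further genes of the same pathways were read in the same way. Of 60 other replication genes 51 were detected, with a median r of 0.69, and 40 of 51 reached 0.5 (30 of 51 over 13 tumours). Among all detected genes 30.7% reached it, and 13.5% over 13 tumours. Dnmt1, the maintenance DNA methyltransferase, had r = 0.93 and 0.86 over 13 tumours. Usp1, a deubiquitinase of PCNA, had 0.91 and 0.83, and Cdc25a, a phosphatase that activates cyclin-dependent kinases, 0.90 and 0.80. The lowest were Cdk2 at -0.23, Orc4 at -0.21 and E2f2 at 0.19, which were 0.06, 0.23 and 0.27 over 13 tumours. Of these 51, 21 rose with Mcm2 over 15 tumours and 1 over 13, namely Exo1. The shares of all genes that rose were 10.2% and 0.327%.

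Of 60 other mitosis genes 55 were detected, with a median r of 0.71, and 37 of 55 reached 0.5 (33 of 55 over 13 tumours). The shares of all detected genes were again 30.7% and 13.5%. Cit, a kinase of cytokinesis, had r = 0.89, Cenpn 0.88 and the condensin subunit Ncapd2 0.87, and over 13 tumours 0.77, 0.79 and 0.79. Pttg1, which encodes securin, the inhibitor of sister separation, ran against the members with r = -0.53 (-0.35 over 13 tumours), and was highest in tumor_9514 at 10.65 and lowest in tumor_29 at 9.74. Spc25 had r = 0.06. The checkpoint gene Mad2l1 had r = 0.12 over 15 tumours and 0.73 over 13, its value in tumor_9514 being the highest of 15 at 10.28. Of these 55, 24 rose with Mcm2 over 15 tumours and 1 over 13, again Ncapd2, against 10.2% and 0.327% of all genes.

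Departures of single values were measured as the difference from each gene's line on the other members. Of 540 values, 7 differed by more than 0.75 log2 units. They fell in 6 of the 36 members, a smaller share than the 19.1% of all detected genes with at least 1 such value. The lowest were Bub1 in tumor_36 at -0.95, Ccna2 in tumor_9509 at -0.93, Nusap1 in tumor_36 at -0.87, Cdc20 in tumor_9509 at -0.85 and Plk1 in tumor_9529 at -0.75. Above the line were Cdc20 in tumor_9504 at 0.78 and Dtl in tumor_9529 at 0.83. The Bub1 value was low in 28 of its 28 probesets and the Nusap1 value in 12 of 12, while Dtl was above its median in 22 of 24. Nusap1, a microtubule-binding spindle protein, read 7.38 in tumor_36, 8.26 in the median tumour and 8.68 in tumor_31 (SD 0.36, n = 15), and its r went from 0.62 to 0.83 without tumor_36. Dtl read 6.95 in tumor_9504, 7.48 in the median tumour and 8.73 in tumor_9529 (SD 0.44, n = 15).

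Several departures fell on members that share a chromosome. In tumor_36, 7 of the 8 detected members on chromosome 2 lay below their line: Bub1 at -0.95, Nusap1 at -0.87, Ube2c at -0.73, Tpx2 at -0.43, Pcna at -0.41, E2f1 at -0.35 and Bub1b at -0.28. Aurka was the exception at 0.27. The other 28 members in that tumour had a median of 0.14, with 20 of 28 above the line. For 5 of the 8, tumor_36 was the lowest of 15, and 4 of the 8 members with r under 0.5 lie on this chromosome. The 20 nearest detected genes on each side moved too, with medians from -0.46 to -0.28 around the 7 genes and -0.09 around Aurka, while all 755 other detected genes of chromosome 2 had a median of -0.13.

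Values above the line fell on shared chromosomes in other tumours. In tumor_9492 the 3 members on chromosome 16, Chaf1b, Cdc45l and Mcm4, lay 0.62, 0.51 and 0.31 above the line and were each the highest of 15, and 293 other genes of that chromosome had a median of 0.27. In tumor_9529 the 3 on chromosome 1, Dtl, Mcm6 and Mcm3, lay 0.83, 0.51 and 0.29 above it and were also the highest of 15, with a median of 0.19 over 538 other genes. In tumor_33 Slbp, Tyms and Mcm7 on chromosome 5 lay 0.57, 0.53 and 0.53 above it, Ung lay at 0.06, and 618 other genes had a median of 0.14. Those 618 genes had a larger median, 0.22, in tumor_9504. There the same 4 members lay between -0.20 and 0.19, with 3 above the line and 1 below it. In tumor_29 all 3 members on chromosome 1 lay 0.26 to 0.45 above the line, with a median of 0.19 over the other genes, and all 4 on chromosome 11 lay 0.05 to 0.48 above it, with a median of 0.13. These chromosomes were singled out after the departures had been seen. Over the 6 chromosomes with at least 3 detected members, all members lay on the same side of the line in 22 of 90 combinations of chromosome and tumour, and in 19 of these the other genes' median had that sign too. The same count was not made for sets of other genes.

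**Figure D5:**
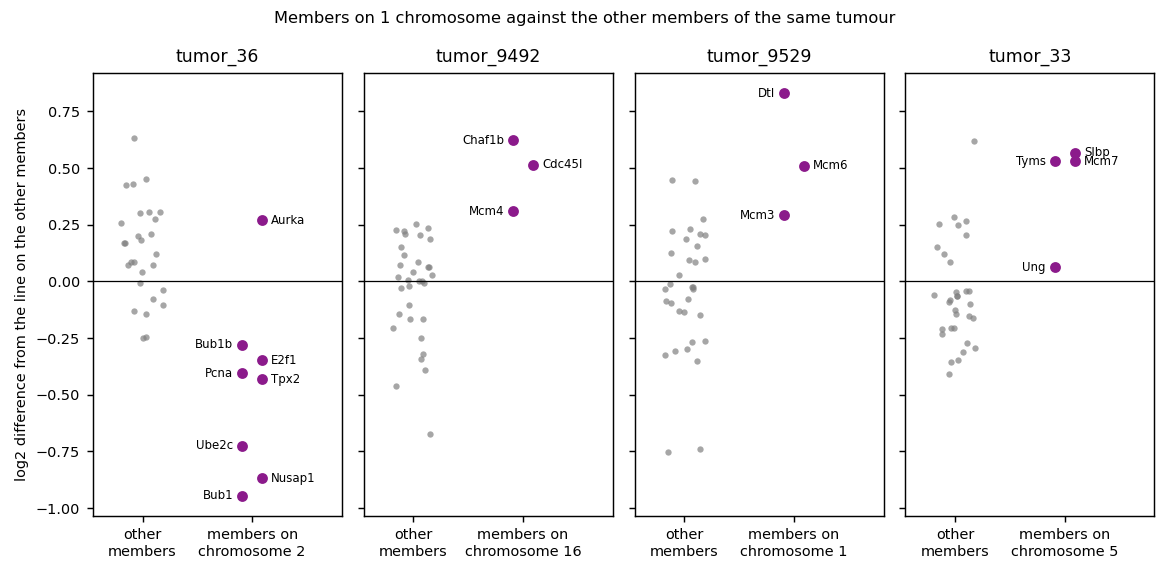
Log2 difference of each detected member from its line on the other members in 4 tumours, for members on the named chromosome (purple, labelled) and all other members (grey, spread sideways only to show them). In tumor_36, 7 of 8 chromosome 2 members lie below 0, and in tumor_9492 and tumor_9529 all 3 members on the named chromosome lie above 0.

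Kif11, the motor that pushes spindle poles apart, followed its neighbours most closely of the 36 members. Its r with the members was 0.69 over 15 tumours and 0.38 over 13, and its difference from the line had the same sign as the median of its neighbours on chromosome 19 in 14 of 15 tumours (r = 0.93). In tumor_9492 it lay at -0.67 beside a median of -0.26 for 371 other genes of chromosome 19, and in tumor_9523 at -0.48 beside -0.24. After the neighbours' median was subtracted from every gene, its r with the members was 0.90. Over all members the difference from the line and the neighbours' median correlated at 0.41 over 540 gene and tumour pairs, and at 0.20 for other detected genes. Where the neighbours had shifted by at least 0.15, member and neighbours shared their sign in 45 of 56 values (80.4%), against 68.3% for other genes, and over 13 tumours in 37 of 42 (88.1%) against 71.1%. Pairs of one tumour share an array and neighbouring genes share a shift, so these values are descriptions. What moved the neighbours was not tested.

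The common movement was as large with the neighbours' median subtracted. The median r of the 36 members was then 0.78, against 0.27 for all detected genes. Of the 36, 29 reached 0.5, against 31.3% of all genes, and 22 of 35 rose with Mcm2 in limma, against 10.7%. Without tumor_36, 30 of 36 members reached 0.5, against 32.2% of all genes. Of the chromosome 2 members with r under 0.5, Bub1 then stood at 0.54, Pcna at 0.52, Ube2c at 0.20 and E2f1 at -0.09. With the neighbours' median subtracted, Bub1 stood at 0.32, Pcna at 0.51, Ube2c at 0.24 and E2f1 at 0.05.

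Markers of the cells a spleen can hold were set beside these results. Mpo, the promyelocyte granule enzyme, followed the members with r = 0.87 and 0.74 over 13 tumours and rose with Mcm2. Of the 7 detected primary granule genes 2 reached 0.5, close to the 30.7% of all detected genes, and the median of the list was 0.13, against 0.27 for all. Mature neutrophil genes had a median r of -0.08, with 1 of 13 at 0.5 or more, Csf3r. Over 13 tumours the median was 0.37 and 4 of 13 reached it, against 0.09 and 13.5% for all genes. Erythroid genes had a median of 0.06, and 0.51 over 13 tumours with 4 of 7 reaching 0.5. B cell genes had -0.13 and -0.08 and T cell genes -0.25 and -0.02, with 0 of 6 and 0 of 8 reaching 0.5 in either set. Red pulp macrophage genes had 0.29 and 0.09, and megakaryocyte genes -0.02 and -0.05. Single macrophage genes were spread widely over 13 tumours, from -0.79 for Adgre1 to 0.49 for C1qb.

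The mean level of the replication list ran from 7.82 in tumor_9514 to 8.71 in tumor_9529 and that of the mitosis list from 8.18 in tumor_9514 to 9.11 in tumor_9492. Mature neutrophil genes ran over a wider range, from 8.95 in tumor_9508 to 11.62 in tumor_31. Erythroid genes from 6.60 in tumor_9500 to 7.51 in tumor_9492 and primary granule genes from 10.47 in tumor_9504 to 11.17 in tumor_9500. B cell genes ran from 6.48 in tumor_9492 to 7.82 in tumor_31 and T cell genes from 6.18 in tumor_9523 to 7.15 in tumor_31. Of the 11 measured erythroid genes 7 were detected, Hbb-b1 and Tfrc among them, and Klf1 and Gata1 were not. Of these lists, Mpo and Csf3r rose with Mcm2 in limma over 15 tumours, and 1 T cell gene, Cd3g, fell. Over 13 tumours none of the 3 passed, and on centred arrays neither rise did. With the neighbours' median subtracted, Ctsg rose too. The part of these cell types in the members' movement was not tested.

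The style of the tumour number was the only mark of a possible batch in the labels. In limma, 0 of 36 members and 0% of 9779 genes differed between the 10 tumours with 4 digits and the 5 with 2 digits at an adjusted p under 0.05, and 1 member, Slbp, and 227 genes did at an unadjusted p under 0.05. Of the 36 members 28 were lower in the tumours with 4 digits, with a median difference of -0.18 log2 units; differences were positive in 8 of 36 members and in 35.2% of all genes. Over 13 tumours they were positive in 13 of 36 members and in 49.7% of all genes, with a median of -0.09 over the members. The 3 lowest tumours all had 4 digits. Among those 10 tumours alone, 6 of 35 members rose with Mcm2, Mcm3 to Mcm7 and Aurka, against 1.66% of all genes. With the number of digits as a further term, 12 of 35 rose, against 6.71%.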

How the data were processed

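Deposited values were linear intensities for each probeset on each array; RMA and the mouse build mm9 are named for them in the submitters' processing notes, without a version. The authors' RNA was amplified before labelling, per the labels' protocols, and scanner files were not used here. The number of arrays limits the precision. Intensities were log2 transformed, and a gene's value is the median of its probesets with 1 symbol only (208397 of 229581 probesets). A gene was detected when its mean lay above the 40th percentile over the 16299 named genes (6.41). Names, chromosomes and gene order came from a RefSeq table of GRCm38.p6, which matched all but 43 symbols, and promoters from RefSeq on the same build.

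Slopes on Mki67, slopes on Mcm2 and the tumour number contrast were fitted with limma 3.58.1 (lmFit and eBayes, R 4.3.3) over all detected genes, two-sided, with Benjamini-Hochberg adjustment and a threshold of 0.05. Python 3.11.15, numpy 2.4.6 and pandas 2.3.3 gave the rest. Only the Mki67 fit was tried on simulated data. These had independent noise for each gene, so they cannot show how a shift shared by an array affects the calls. Likeness was Pearson's r and Spearman's rho with the other members' mean deviation. Full values are given for Mki67, Mcm2, the 6 members with the largest SD, the 5 highest and 8 lowest in r, all under 0.5, any not detected, and any with a value over 0.75 from its line. The further replication and mitosis lists give their 3 highest and 3 lowest genes. Outside them, 10 genes with at least 3 probesets are named for the smallest p of a rising slope on Mki67.

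Alternatives tried were averaging probesets, dropping the filter or raising it to the 60th percentile, keeping brighter probesets (above the 25th percentile), centring or quantile normalizing arrays, and leaving out tumours singly, as the dim pair or by number style, with number style also added as a term. Leaving out tumor_36, leaving out chromosome 2 members, centring the 13 arrays and subtracting the median of 20 neighbours on each side were chosen after seeing the data. Medians of neighbours and of chromosomes are relative to each array's median deviation over detected genes. The members and lists were chosen with earlier results of these data known.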

Additional observations from a re-analysis of the deposited data

How the results depend on the processing

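The median r of the members, 0.76, became 0.55 on centred arrays, 0.56 with quantile normalization, 0.65 without tumor_9509 and tumor_9514, and 0.56 without both on centred arrays; leaving out 1 tumour at a time gave 0.69 to 0.77. The 16 members rising with Mcm2 became 3 on centred arrays, 3 with quantile normalization, 2 without tumor_9509 and tumor_9514, 1 without both on centred arrays and 6 in the tumours with a 4-digit number; leaving out 1 tumour gave 5 (without tumor_9514) to 19. Other settings gave 12 to 22. No setting gave a limma call for Mki67 or for the tumour number. For E2f1 (r = -0.07) the sign turned with the mean over probesets (0.28), without tumor_9509 and tumor_9514 (0.21), without both on centred arrays (0.025), after subtracting neighbours (0.048) and without tumor_9514 alone (0.14); leaving out 1 tumour gave -0.17 to 0.14. It turned for Ung with the mean over probesets (0.075), for Cdc20 without both dim arrays on centred arrays (-0.035) and for Ube2c with quantile normalization (-0.013). Single members' r stayed within the confidence interval of an r over 15 arrays in 943 cases, left it in 9 and changed sign in 8. That interval is wide, so the 943 cases do not show that r was stable. Plk1, for example, stayed within it while its r went from 0.67 to 0.35 without tumor_9509 and tumor_9514. An r of at least 0.5 was kept by 19 members in every setting that measured them (16 of them in all 28 settings), and Mki67, E2f1, Ung and Ube2c stayed under it wherever they were measured. Causes were not tested beyond what each setting removes. With 15 arrays of 1 group, no untreated spleen and no scanner files, neither background correction nor scan date could be varied. No paired analysis was possible because there is 1 group.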
